A study of Homo sapiens with 2 samples.

Results

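Cytosolic ribosomal protein genes encode the protein components of the ribosome that translates messages in the cytoplasm. They were taken by name from the protein-coding genes of GENCODE release 44. A gene was a member if it was called RPL or RPS followed by a number, with an optional A, X, Y or L ending, or if it was RPLP0, RPLP1, RPLP2 or RPSA. Kinase genes named RPS6K and names ending in L1 were left out. The rule found 84 members among 20033 protein-coding genes, and used no measured value. Of these, 50 encode proteins of the large subunit and 34 encode proteins of the small subunit.

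The data were NUDT21 CUT&Tag profiles of J.gamma1 cells, which are an established line of human T-cell acute lymphoblastic leukaemia (T-ALL). CUT&Tag uses an antibody to bring a transposase to a protein on chromatin, so that DNA near the protein is cut and sequenced. NUDT21 is the RNA-binding subunit of cleavage factor I, which acts in the choice of polyadenylation sites, and the study asked where it also lies on DNA. Both samples were replicates of the same group, cells of a single line profiled with the antibody against NUDT21, with no second condition and no control sample analysed here, so the comparisons are between genes.

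The list of replicate 1 held 97162 peaks and that of replicate 2 held 68532, of which 92722 and 66671 lay on chromosomes 1 to 22, X and Y. The fold of a peak compares the fragments at its summit with the local background, as the authors' peak caller gave it. Both of these quantities were recovered from fold and −log10 p, and the background is called the control level. The median summit held 30 fragments in replicate 1 and 20 in replicate 2. Read totals are unknown. Of the genes that define T cells, 8 of 10 had promoter peaks in both lists, beside 2 of 3 B-cell genes, 3 of 3 myeloid genes and 57.0% of all protein-coding genes. Peaks do not measure expression, and these lists are too short to check the cell type.

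Ribosomal protein genes are among the most strongly transcribed genes of a growing cell, and their products are made in equal amounts for assembly in the nucleolus. Most are short, and many of their messages begin with a run of pyrimidines, the 5′ terminal oligopyrimidine or TOP tract, through which mTOR signalling controls their translation. Several carry small nucleolar RNA (snoRNA) genes in their introns. Loss of a copy of some of them causes Diamond-Blackfan anaemia, a failure of red cell production, and some are altered in T-ALL.

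Start sites are shown first, since the peaks are placed against them. In the RefSeq promoter table (GRCh38.p14) 67 of the 84 members were matched, and for 60 of these the RefSeq start was the start of the canonical GENCODE transcript. A start tract was sought on the strand of the gene as a C followed by at least 5 C or T bases, beginning within 10 bases of the start. It was found in 52 of the 67 members (77.6%) and in 20.9% of 15345 promoters of protein-coding genes. The windows below run from 15 bases before the start to the 15th base from it, on the strand of the gene, and capitals mark the tract. RPL13A, RPL36, RPLP2 and RPS16 are shown as members with high folds, RPL24, RPS13 and RPS3A as members with low folds, and RPL35A, RPL34 and RPS27 as members with no promoter peak in at least 1 replicate.
RPL13A, chr19:49487593-49487622, plus strand: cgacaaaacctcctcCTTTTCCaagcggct
RPL36, chr19:5690280-5690309, plus strand: ccgcgcggcgccagcCCTTCCgccacggcc
RPLP2, chr11:809952-809981, plus strand: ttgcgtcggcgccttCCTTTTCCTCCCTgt
RPS16, chr19:39435935-39435964, minus strand: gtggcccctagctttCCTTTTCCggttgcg
RPL24, chr3:101686704-101686733, minus strand: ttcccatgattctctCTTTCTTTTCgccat
RPS13, chr11:17077653-17077682, minus strand: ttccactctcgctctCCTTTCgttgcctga
RPS3A, chr4:151099613-151099642, plus strand: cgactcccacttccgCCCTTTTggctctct
RPL35A, chr3:197950175-197950204, plus strand: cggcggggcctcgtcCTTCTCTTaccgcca
RPL34, chr4:108620561-108620590, plus strand: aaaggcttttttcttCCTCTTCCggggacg
RPS27, chr1:153990747-153990776, plus strand: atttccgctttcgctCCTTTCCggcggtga

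The tract was present at the start of members with high folds, with low folds and with no peak. Among members in the table, promoter peaks in both lists were found for 45 of 52 with the tract (86.5%) and for 12 of 15 without it (80%). Other genes had them in 57.0% with the tract and 57.5% without. The median percentile of fold, explained with the folds below, was 74.1 in members with the tract and 74.1 in those without.

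Further letters were counted on both strands in the 300 bases from 250 before the start to 50 after it. TATAAA, the core of a TATA box, was in 9.0% of members and 9.6% of all promoters. GGGCGG, the core of a GC box, was in 55.2% of members and 59.2% of all promoters. The shares of both were close to those of all promoters. CCGGAAG, a core of ETS factor sites, was in 32.8% of members and 14.4% of all promoters. AANATGGC, from the binding site of YY1, was in 14.9% and 8.0%. TGTA, the DNA form of the UGUA element that NUDT21 binds in RNA, was in 59.7% of members and 51.5% of all promoters. Promoter peaks in both lists were less frequent with TGTA, in 32 of 40 members against 25 of 27 without it. Other genes had them in 49.9% with TGTA and 65.4% without. The members' median percentile of fold was 72.7 with TGTA and 80.2 without, and this split has no test. Neither the shares of any of these letters nor the splits by them were matched for GC content. TCGCGAGA, a known promoter element whose letters can match both strands of the same site at an offset of 2 bases, was in 11 members (16.4%) and in 1.8% of all promoters. As a ratio of shares TCGCGAGA differed most of these letter sets, and in percentage points CCGGAAG did.

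The 11 members with TCGCGAGA all had promoter peaks in both lists, against 82.1% of members without it, and other genes had them in 76.2% with these letters and 57.1% without. Their percentile of fold had a median of 90.1, from 22.6 to 95.9. The 56 members without it had a median of 73.2 over the 46 with a peak in both. Among other genes, the median percentile was 50.1 with TCGCGAGA and 54.5 without it. The shares thus differed the same way in members and other genes, and the medians did not. Several of the members' percentiles belong to peaks far from the element, such as those of RPL4, with summits at 6994 and 6969 bp from the canonical start, and of RPS15, at 6658 and 1643 bp. The other letter sets were split too, besides TGTA above, and the direction varied among the members. With GGGCGG the members' share was higher (32 of 37 against 25 of 30), as was the median (80.5 against 72.8). CCGGAAG had 18 of 22 against 39 of 45, with medians of 73.4 and 75.2. AANATGGC had 8 of 10 against 49 of 57, with 67.5 and 74.1. TATAAA had 5 of 6 against 52 of 61, but medians of 92.3 and 73.9. Among other genes, shares with and without the letters were 67.7% and 42.4% for GGGCGG, and 73.6% and 54.7% for CCGGAAG. They were 71.4% and 56.2% for AANATGGC, and 32.2% and 60.1% for TATAAA. For CCGGAAG and AANATGGC the shares thus differed in opposite ways in members and other genes. The TCGCGAGA split was looked at after the values were seen, and none of these splits has a test. The windows below show the element, or its complement in RPS15, in capitals on the strand of the gene, for members with a high percentile (RPS15, RPS19, RPL4) and for the member with the lowest percentile (RPS6), with the place of the first capital counted from the start as 0, negative upstream.
RPS15, chr19:1438358-1438387, plus strand, first base at −27: catgccggcagTCTCGCGAtaactgcgcag
RPS19, chr19:41860197-41860226, plus strand, first base at −47: tttcggaactcTCGCGAGAccctacgcccg
RPL4, chr15:66505075-66505104, minus strand, first base at −238: gatacctcgacTCGCGAGAgttggcctcgc
RPS6, chr9:19380268-19380297, minus strand, first base at −50: ttctgctcatcTCGCGAGAactgaaagcgc

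Peaks of NUDT21 lay at the promoters of most ribosomal protein genes. A promoter peak was a peak with its nearest edge within 3000 bp of any annotated transcript start. In replicate 1 such a peak was found for 79 members (94.0%), beside 69.8% of all protein-coding genes. In replicate 2 it was found for 73 members (86.9%), beside 57.9% of all protein-coding genes. Members were covered more often than the gene set as a whole in each replicate. In both replicates at once it was found for 72 members, 85.7% with a 95% Wilson interval of 76.7 to 91.6% for counting error only, beside 57.0% of all protein-coding genes.

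A difference of similar kind was left when genes of like GC content were compared. The members' promoters had a median GC content of 57.9% within 500 bp of the canonical start, from 46.5 to 70.7%, against 61.3% for all protein-coding genes. Other protein-coding genes, weighted to have the members' GC content, had promoter peaks in both lists in 59.8%, which left a difference of 25.9 percentage points. Members have a median of 9 annotated transcripts against 6 over all protein-coding genes, but their starts lie close together, so the sequence within reach of a start had a median of 8072 bp against 12087 bp. When only peaks within 1000 bp of the canonical start were counted, 69 members (82.1%, interval 72.6 to 88.9%) had a peak in both replicates, beside 48.1% of all protein-coding genes and 51.3% of genes of like GC content. Genes are not independent replicates and no test was run on these shares.

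**Figure D1:**
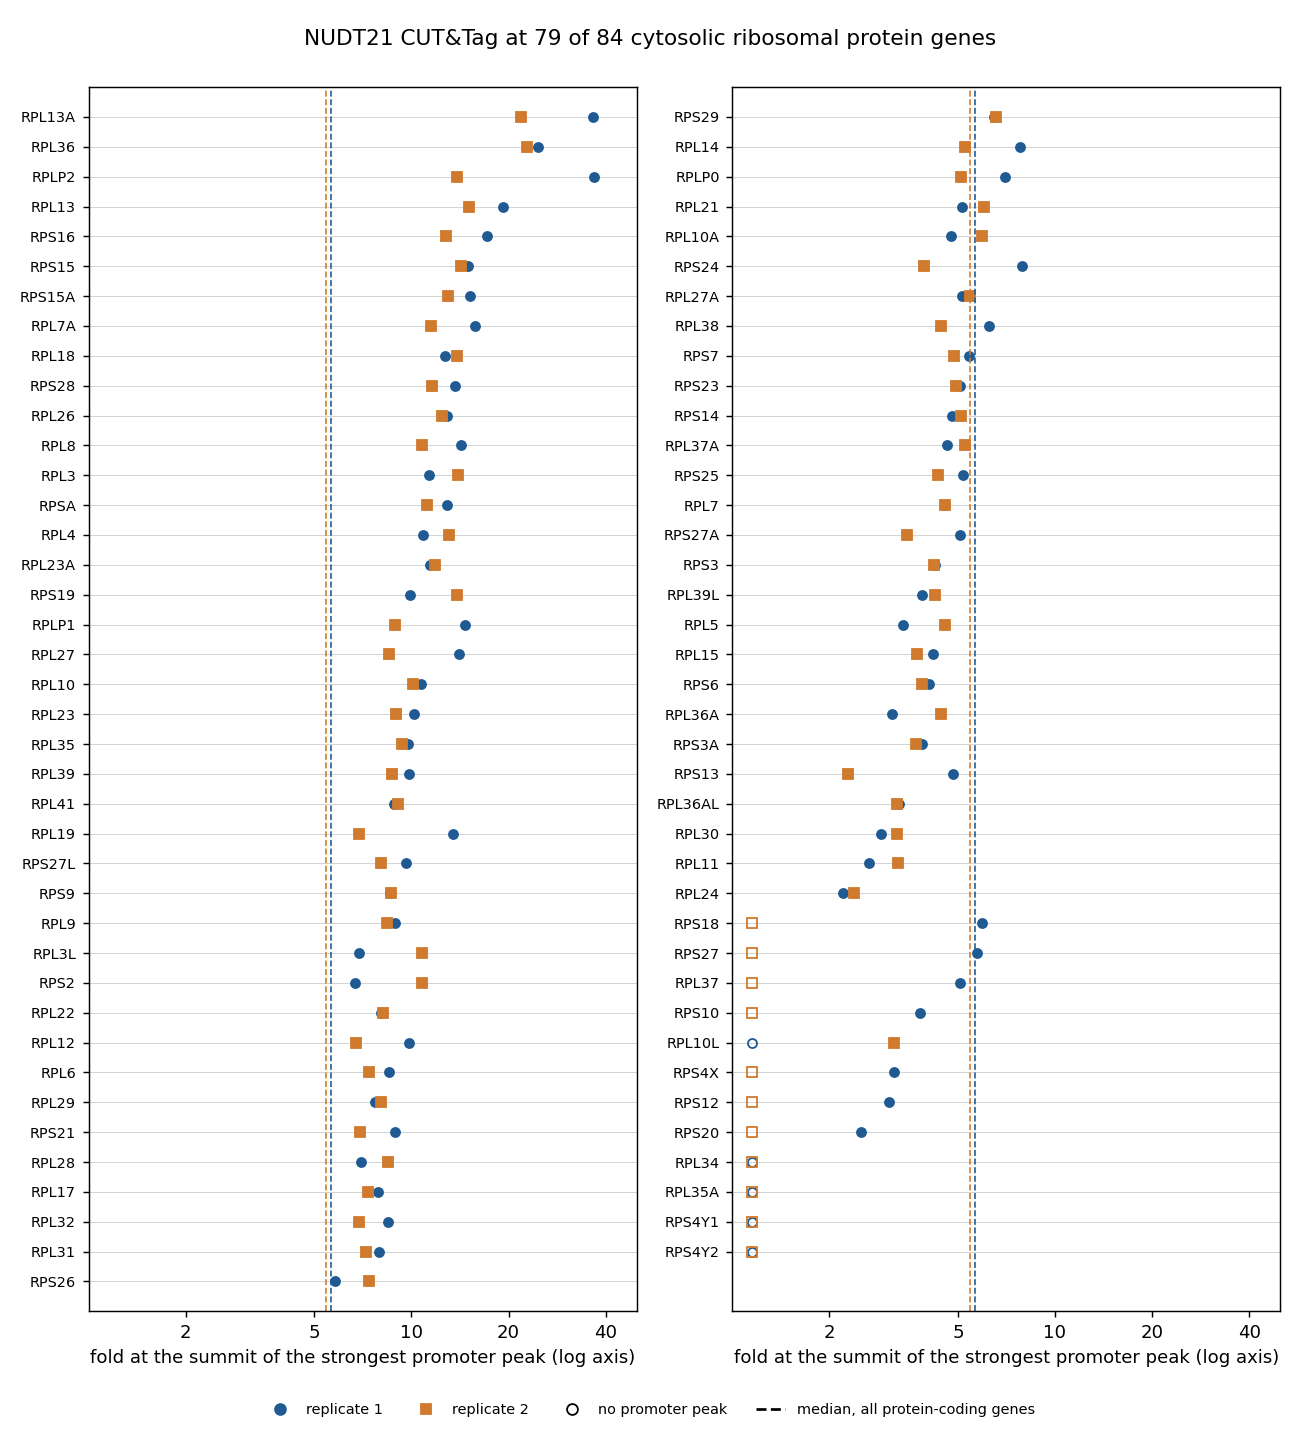
Fold at the summit of the strongest promoter peak (log axis) for 79 of the 84 members, in order of their mean percentile, with replicate 1 as circles and replicate 2 as squares. Open symbols at the left edge stand for no promoter peak, and dashed lines mark the median of all protein-coding genes that had a promoter peak, 5.64 in replicate 1 and 5.45 in replicate 2; most members lie to the right of both lines and the last 12 lack a peak in at least 1 replicate.

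Folds at the members were higher than at most genes. The fold of the strongest promoter peak had a median of 7.91 over 79 members in replicate 1 and 7.40 over 73 members in replicate 2, with a mean of 7.65 ± 0.361 (SD, n = 2). Genes of like GC content had 5.41 and 5.32, a mean of 5.36 ± 0.0653 (SD, n = 2). In each replicate the members' median was the higher. The SDs mix the scales of the 2 lists and do not measure the uncertainty of the difference between members and these genes. Folds of different lists are not on the same scale, so each gene also got a percentile among all protein-coding genes that had a promoter peak in that list. Members had a median percentile of 72.8 in replicate 1 and 74.2 in replicate 2, against 46.7 and 47.7 for genes of like GC content. In replicate 1, 52 of 79 members lay above the median gene, 18 above the 90th percentile and 5 below the 10th. In replicate 2, these numbers were 49 of 73, 21 and 6. The order of the members was shared between replicates, with a Spearman rho of 0.88 over the 72 members found in both. This is a description, since both lists share promoter sequence and mappability. Some control levels were high in both lists, such as 17.0 and 9.47 at RPL24 and 18.0 and 10.6 at RPS3A. The members' medians were 7.0 and 3.90. Whether both lists used the same control is not given, and the part of a shared divisor in this rho was not tested.

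Some of these peaks were long, and many lay within reach of a neighbour. The strongest promoter peak was also within reach of another protein-coding gene for 38 of 79 members in replicate 1 (48.1%) and for 32 of 73 in replicate 2 (43.8%). The same share was not computed over all protein-coding genes, so these counts do not show a trait of the members. Restricted to peaks within 1000 bp of the canonical start, the median fold was 6.93 in replicate 1 and 6.89 in replicate 2, against 5.08 and 5.02 for genes of like GC content. Over the 44 members with no start of another protein-coding gene within 6000 bp of theirs, the median fold was 6.96 and 6.47. Of these 44, 37 (84.1%) had promoter peaks in both lists, 35.0 percentage points above genes of like GC content without close neighbours. The members without close neighbours thus had lower folds than all members, and genes of like GC content without close neighbours had 4.80 and 4.76.

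The 8 members with the highest mean percentile lay mostly on chromosome 19. Of these, 6 are described here. RPL13A is a large-subunit protein that also acts in a translational silencing complex. Its strongest promoter peak lay far from its start and is not described here. The strongest peaks within 1000 bp of its canonical start had folds of 10.2 with 99 fragments in replicate 1 and 11.4 with 55 fragments in replicate 2. Their summits lay at −198 and −177 bp from that start, where negative is upstream.

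RPLP2, an acidic protein of the ribosomal stalk, had a fold of 36.8 with 214 fragments in replicate 1 and 13.8 with 60 fragments in replicate 2. It was the highest fold of any member in replicate 1, and the replicates differed for it more than for its neighbours in rank. Its summit lay at −282 and −374 bp, within reach of PIDD1, the gene on the other strand. RPL36, a large-subunit protein, had folds of 24.6 and 22.8. In replicate 1 its peak was 39166 bp long, with the summit at −9450 bp, so this fold belonged to a long enriched stretch that took in HSD11B1L, LONP1 and MICOS13. RPL13, with folds of 19.2 and 15.1, had its summits at −3226 and −3223 bp, in a peak of 7342 bp and 6457 bp that SPG7 also reached. Long peaks of this kind put the summit far from the start of the member.

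RPS15, which is mutated in some leukaemias, had folds of 15.0 and 14.3, the first in a peak of 18811 bp. RPS16, in contrast, had short peaks of 928 and 609 bp at the start, with folds of 17.2 and 12.8. RPLP2 and RPS16 had the summit of the strongest promoter peak within 400 bp of the canonical start in both replicates.

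The 8 members with the lowest mean percentile among those found in both replicates had folds between 2.21 and 4.84. RPL24, which sits at a bridge between the subunits, had a fold of 2.21 with 42 fragments in replicate 1 and 2.39 with 24 fragments in replicate 2, the lowest mean percentile of all at 1.01. RPL11 had 2.66 and 3.27, and RPL30 had 2.88 and 3.23. RPL36AL, a paralog of RPL36A, had 3.29 and 3.23, and RPL36A itself had 3.12 and 4.42. All of these values lay below the median gene of the same replicate. RPS13 had 4.84 in replicate 1 and 2.29 in replicate 2, RPS3A had 3.88 and 3.71, and RPS6, the target of the S6 kinases downstream of mTOR, had 4.06 and 3.86. Some of these had many fragments at a high control level. In replicate 1 RPL36AL had 74 fragments over a control level of 20 and RPS3A had 79 over 18.0, where the members' strongest peaks had medians of 66.0 fragments and a control level of 7.0. RPL24 had 42 fragments, fewer than that median, over a control level of 17.0.

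A promoter peak was missing in at least 1 replicate for 12 members. RPL35A and RPL34, large-subunit proteins of which the first is mutated in Diamond-Blackfan anaemia, had none in either replicate, nor did RPS4Y1 and RPS4Y2, the copies of RPS4X on the Y chromosome. RPS18, RPS27, RPL37, RPS10, RPS4X, RPS12 and RPS20 had a peak in replicate 1 only, the deeper list. Their folds were 5.95 in RPS18, 5.74 in RPS27, 5.08 in RPL37, 3.82 in RPS10, 3.17 in RPS4X, 3.06 in RPS12 and 2.50 in RPS20. RPL10L, a copy of RPL10 used in the testis, had a peak in replicate 2 only, with a fold of 3.17 and 11 fragments. RPS12 had 92 fragments over a control level of 27.0 in replicate 1. A missing peak means only that no peak passed the threshold of the peak caller at this depth.

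**Figure D2:**
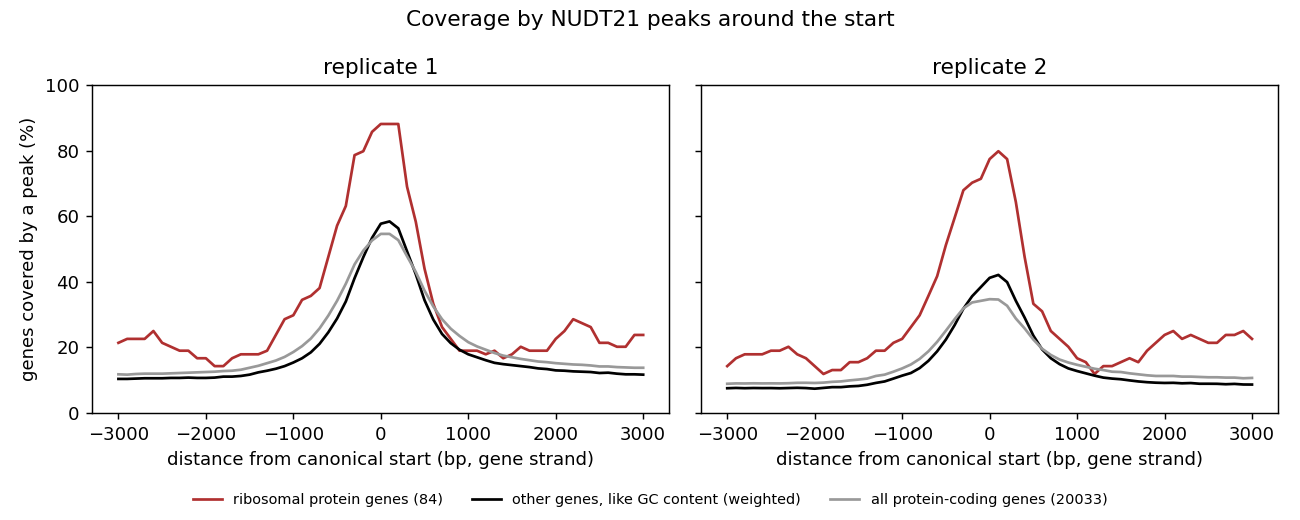
Share of genes covered by a peak (vertical axis, percent) at each distance from the canonical start (horizontal axis, bp on the strand of the gene), for the 84 members, for other protein-coding genes weighted to like GC content and for all protein-coding genes. At the start 88.1% of members were covered in replicate 1 and 77.4% in replicate 2, against 57.7% and 41.2% of genes of like GC content.

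Peaks at the members sat over the start and reached upstream. Among the strongest peaks within 1000 bp of the canonical start, 73 of 78 spanned the start itself in replicate 1 (93.6%) and 63 of 71 in replicate 2 (88.7%), against 84% and 76.2% of such peaks at genes of like GC content. Their summits had a median position of −122.5 bp in replicate 1 and −115.0 bp in replicate 2, upstream of the start. Genes of like GC content had medians of 31.0 and 37.0 bp after the start. Summits lay upstream for 64.1% and 56.3% of members and for 45.5% and 45.8% of genes of like GC content. All protein-coding genes had 53.2% and 52.8%, with median positions of −34.0 and −44.0 bp. In replicate 2 the members' share was thus near that of all protein-coding genes. Over the strongest promoter peaks at any distance, the median position had opposite signs in the replicates, −116.0 and 37.0 bp, with a mean of −39.5 ± 108.2 (SD, n = 2), so it gave no direction.

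Against the gene models, 36 of the 78 summits in replicate 1 (46.2%) lay upstream of the whole gene, 29 (37.2%) in an exon, 10 (12.8%) in an intron and 3 past the gene end. In replicate 2, 27 of 71 (38.0%) lay upstream, 32 (45.1%) in an exon, 10 (14.1%) in an intron and 2 past the gene end. Intronic summits were fewer than at genes of like GC content, where they made up 26.4% and 26.2%. At 500 bp upstream of the start, 57.1% of members were covered in replicate 1 and 51.2% in replicate 2, against 28.8% and 22.4% of genes of like GC content. At 500 bp downstream these were 44% and 33.3% against 34.4% and 23.6%. The members thus stood apart more on the upstream side.

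Within 3000 bp either side of the canonical start, peaks covered a median of 1420 bp in replicate 1 and 1540 bp in replicate 2 at members with a peak there, a mean of 1480 ± 85.2 (SD, n = 2). Genes of like GC content had 1222 and 1077 bp, and all protein-coding genes 1469 and 1232 bp. In replicate 1 the covered length was therefore below that of all protein-coding genes.

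**Figure D3:**
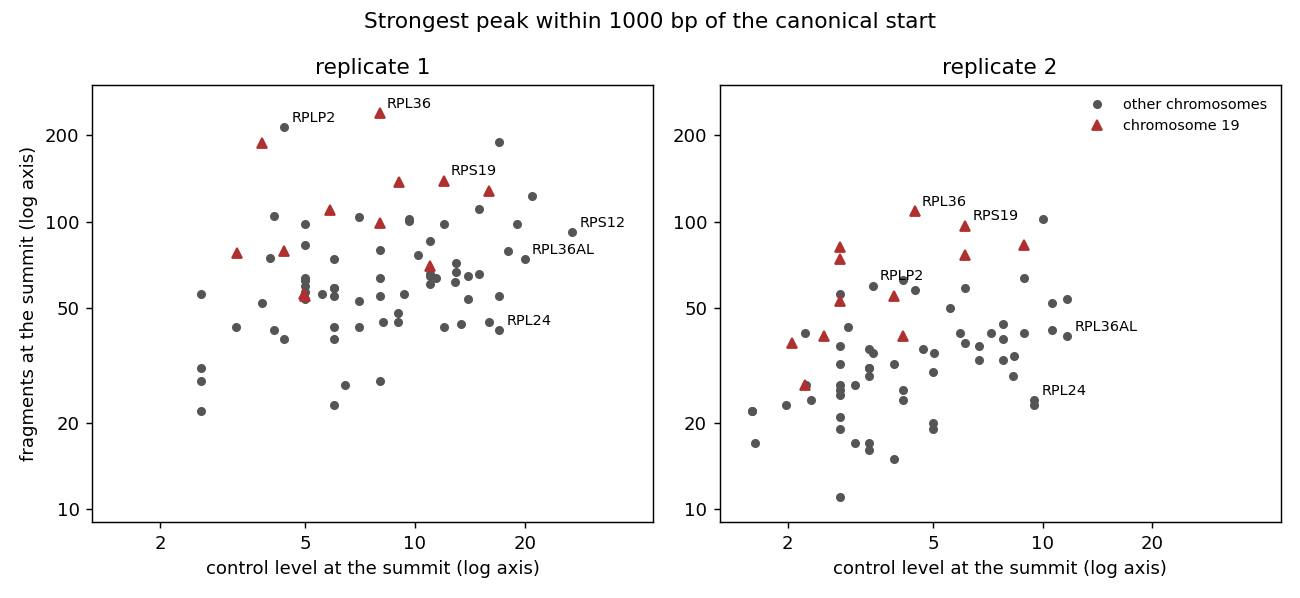
Fragments at the summit (vertical log axis) against the control level there (horizontal log axis) for the strongest peak within 1000 bp of the canonical start of each member, with members on chromosome 19 as triangles. RPLP2 and RPL36 combine many fragments with a low or middling control level, whereas RPL24, RPL36AL and RPS12 lie at the right with high control levels.

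Fold combines 2 quantities, fragments and control level, and the members differed in both. At the strongest promoter peak, members had a median of 66.0 fragments in replicate 1 and 38.0 in replicate 2, against 49.0 and 28.0 for genes of like GC content. The median control level was 7.0 and 3.90, against 7.01 and 4.43. At these peaks the higher fold of the members went with more fragments, at a control level close to that of the genes of like GC content in replicate 1. Within 1000 bp of the canonical start, members had 63.5 and 35.0 fragments against 51.0 and 29.0, and control levels of 8.0 and 3.90 against 8.0 and 5.01, so in replicate 2 a lower control level went with the higher fold as well. Among the members, fold at the canonical start was lower where the control level was higher, with a Spearman rho of −0.67 over 78 members in replicate 1 and −0.52 over 71 in replicate 2. The control level is the divisor of the fold, so the correlation is in part arithmetic. The rho of fragments with the control level was 0.27 and 0.37, and that of fold with GC content was 0.33 and 0.38. The source of the control is not given in the sources used here, and its part in the order of the members was not tested.

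**Figure D4:**
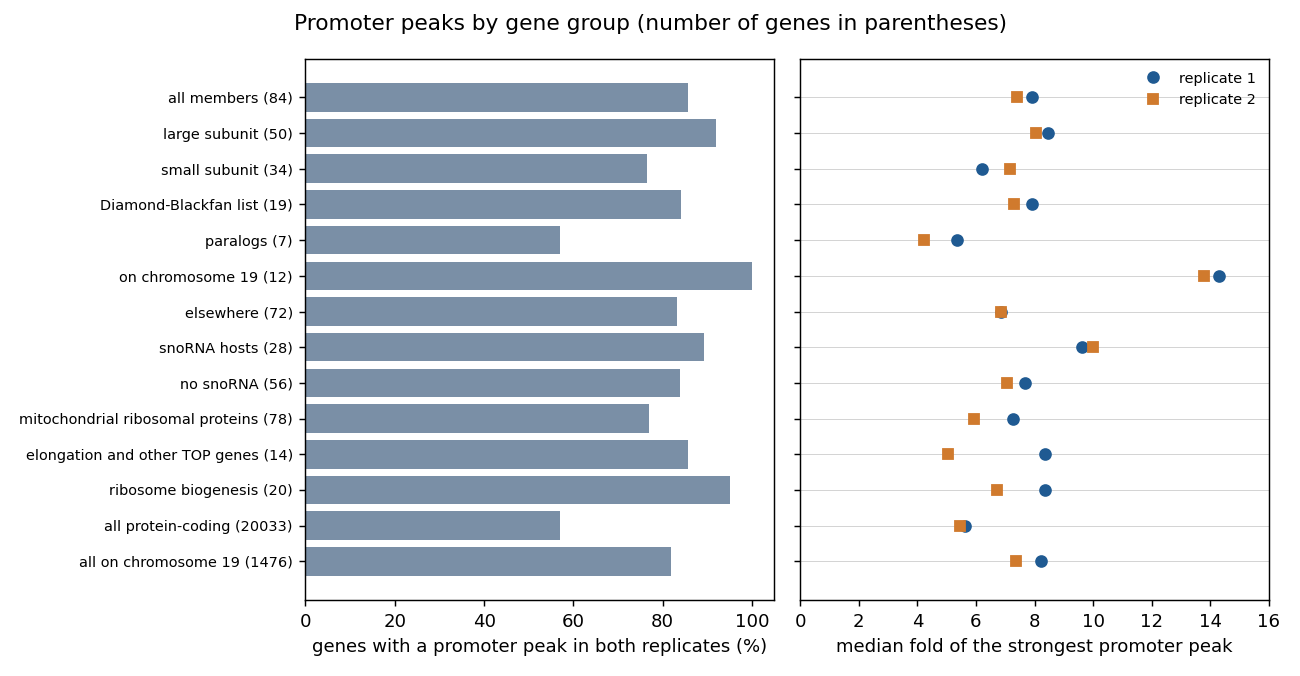
Left, share of genes with promoter peaks in both lists (percent); right, median fold of the strongest promoter peak in replicate 1 (circles) and replicate 2 (squares), by gene group, with the number of genes in parentheses. Members on chromosome 19 had a peak at all 12 genes and median folds of 14.3 and 13.8, and the paralogs had the lowest share among the groups of members, 57.1%.

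By subunit, 46 of 50 large-subunit genes (92%) and 26 of 34 small-subunit genes (76.5%) had promoter peaks in both lists, beside 57.0% of all protein-coding genes. The median fold was 8.46 and 8.06 for the large subunit and 6.20 and 7.15 for the small subunit in replicates 1 and 2. Within 1000 bp of the canonical start the order held in replicate 1, 7.44 against 5.88, and was the opposite in replicate 2, 6.87 against 7.40, so the folds gave no direction between the subunits. All 3 stalk genes, whose products bring elongation factors to the ribosome, had a peak in both replicates. RPLP0 had folds of 7.02 and 5.10, RPLP1 had 14.7 and 8.89, and RPLP2 had the 36.8 and 13.8 given above. RPLP2 was highest and RPLP0 lowest in both replicates.

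The 4 genes listed as altered in T-ALL or other leukaemias all had promoter peaks in both lists, beside 85.7% of members and 57.0% of all protein-coding genes, and 3 of the 4 had them within 1000 bp of the canonical start. RPL10, which joins the large subunit late in its assembly and is mutated in T-ALL, had folds of 10.7 and 10.1 in peaks 4729 and 4687 bp after its canonical start that DNASE1L1 shared, and 8.27 and 7.13 in the strongest peaks with an edge within 1000 bp of that start, whose summits lay at 3035 and 72 bp. RPL22, lost in some T-ALL, had 8.03 and 8.14 with summits 39 and 40 bp after the start. RPL5, which with RPL11 and an RNA of the large subunit binds MDM2 and so acts on p53, had 3.38 and 4.55. RPL11 had the 2.66 and 3.27 given above, and in replicate 1 its summit lay at −3096 bp with no peak within 1000 bp of it. RPL10 and RPL22 thus lay above the median of all protein-coding genes in both replicates, and RPL5 and RPL11 below it.

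Of the 19 genes on the Diamond-Blackfan anaemia list, 16 (84.2%) had promoter peaks in both lists. The shares were 86.2% of the 65 other members (56 genes) and 57.0% of all protein-coding genes. The median folds of the listed genes were 7.91 and 7.31, against 7.89 and 7.97 for the other members. The Diamond-Blackfan genes were close to the rest of the members by these measures. RPS19, the gene most often mutated in the disease, had folds of 9.93 and 13.8 with 139 and 97 fragments, and its summits lay at −225 and −313 bp. RPS14, the gene whose single copy loss underlies the anaemia of the 5q deletion syndrome, had 4.81 and 5.11, below the median gene in both replicates.

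Other single genes covered the range between these. RPSA, also known as the laminin receptor, had folds of 12.9 and 11.2 with summits at −152 and 18 bp. RPL3, which lies near the peptidyl transferase centre, had 11.3 and 13.9 in a peak 8365 and 8334 bp after its canonical start, beyond the gene, and 9.88 and 7.37 at the start. Its muscle paralog RPL3L had 6.86 with the summit at −14 bp in replicate 1, and in replicate 2 a fold of 10.8 in a peak shared with RPS2. The value of RPL3L in replicate 2 therefore belonged to neighbouring genes as well.

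The 7 paralogs with narrow or lower use, RPL3L, RPL10L, RPL39L, RPS4Y1, RPS4Y2, RPS27L and RPL36AL, had promoter peaks in both lists in 4 cases (57.1%), close to the 57.0% of all protein-coding genes. The other members had one in 68 of 77 (88.3%). Of the paralogs that the name rule left out, RPL22L1, RPL7L1 and RPL26L1, 2 of 3 had a peak in both. All 3 ribosomal proteins listed under other names had one, among them FAU with folds of 6.10 and 5.70 and RACK1 with 8.65 and 5.88.

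Members on chromosome 19 stood above the others. All 12 had promoter peaks in both lists, with median folds of 14.3 and 13.8, against 60 of 72 (83.3%) and 6.86 and 6.87 for members elsewhere. Chromosome 19 as a whole was also high: 81.8% of its 1476 protein-coding genes had promoter peaks in both lists, with median folds of 8.22 and 7.36. Members elsewhere still lay above genes of like GC content outside chromosome 19. Those genes had promoter peaks in both lists in 56.8%, with median folds of 5.21 and 5.12. The part of the chromosome in the members' folds was not tested.

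An annotated snoRNA lay inside 28 members on the same strand. Of these, 25 (89.3%) had promoter peaks in both lists, against 47 of the 56 without one (83.9%) and 57.0% of all protein-coding genes. The median folds were 9.61 and 10 with a snoRNA against 7.69 and 7.07 without. Within 1000 bp of the canonical start the difference in fold was smaller, 7.88 and 7.37 against 6.66 and 6.26. The shares with a peak there in both lists were 82.1% in each group, beside 48.1% of all protein-coding genes.

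Related gene families were set beside the members. Mitochondrial ribosomal protein genes, which serve the separate ribosome of mitochondria, had promoter peaks in both lists in 60 of 78 (76.9%, interval 66.4 to 84.9%), and the interval overlapped that of the cytosolic members. Their median folds were 7.27 and 5.92. Within 1000 bp of the canonical start their share was 70.5% (interval 59.6 to 79.5%), below the 82.1% of the members, again with overlapping intervals. Translation elongation factors and other genes with TOP messages had one in 12 of 14 (85.7%), with median folds of 8.36 and 5.06. EEF1A1, which brings aminoacyl-tRNA to the ribosome, had 7.19 and 9.48, EEF2, which moves the ribosome along, had 10.5 and 12.4, and EIF3F had no promoter peak in either list.

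Ribosome biogenesis genes had promoter peaks in both lists in 19 of 20 (95%), with median folds of 8.37 and 6.73. NCL, which encodes nucleolin, had 16.6 and 18.0, and UTP14A lacked a peak in replicate 2. The 3 families and the members all exceeded the 57.0% of all protein-coding genes, and no test set them against each other.

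NUDT21 acts at polyadenylation sites, so gene ends were examined in members longer than 7000 bp, where the end of the canonical transcript is less often inside the promoter window. Of the 35 such members, 10 (28.6%) had a summit within 1000 bp of the end in replicate 1, 13 (37.1%) in replicate 2 and 8 (22.9%) in both. Other long protein-coding genes had one in 19.6%, 16.5% and 11.9%. Of the 49 shorter members, 10 (20.4%) had one in both replicates, close to the 17.5% of other shorter genes. Length was taken from the gene span, which is longer than the canonical transcript for many members. Within 500 bp of the end the mean share of the long members over the replicates was 10% in place of 32.9%. No share of other genes was set beside that value.

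The 8 members with a summit near the end in both replicates were RPL31, RPL32, RPSA, RPS3, RPL4, RPL3L, RPS15A and RPL10. RPL4, RPL3L, RPSA and RPL10 also had a start of a protein-coding gene within 3000 bp of that end, and RPL4 and RPL10 had the highest folds there, 10.9 and 13.1 in RPL4 and 10.7 and 10.1 in RPL10. Without such a start, RPL31 had 6.01 and 7.86 with the summit 845 and 850 bp past the end of its canonical transcript. Also without one, RPL32 had 4.71 and 4.11, RPS3 had 4.66 and 3.46, and RPS15A had 6.83 and 7.85. The summits of RPL31 and RPS3 lay inside the gene span, which is longer than the canonical transcript. Among long genes with no start within reach of the end, a summit was found in both replicates at 4 of 19 members (21.1%) and at 8.2% of 12086 other genes. The count of 4 is small, and the difference has no test.

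Processed pseudogenes of ribosomal proteins are copies of their messages inserted elsewhere in the genome, without the promoter. Of 1512, 119 (7.87%, interval 6.62 to 9.34%) had a peak within 3000 bp of their start in both replicates, and 20 (1.32%, interval 0.858 to 2.03%) were overlapped by a peak in both. Over all 10146 processed pseudogenes the first share was 7.72% (interval 7.21 to 8.25%). The copies thus had peaks nearby as often as other processed pseudogenes did, within the counting intervals.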

How the data were processed

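CUT&Tag peak lists from 2 biological replicates of J.gamma1 cells were analysed. Per the labels and the study's methods, the authors trimmed reads with fastp, aligned them to hg38 with Bowtie2 2.2.5, and called peaks in each replicate with MACS3 3.0.1; duplicates were removed with Picard. For each peak the deposited values were the fold, a ratio of the summit pileup to the local background, the −log10 p and −log10 q there, and the summit position. The deposited score was not used. No peak lay outside the reference sequences of hg38.

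Whole fragments and the control level at each summit were recovered from fold and −log10 p, for 99.990% and 100.00% of peaks, with the pileup of replicate 1 scaled by 0.921. A scaled pileup can arise when a caller adjusts for a control library, and the methods describe none. The recovery, promoter assignment and GC weighting were tested on simulated data.

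Starts, gene spans and snoRNAs came from GENCODE 44, and promoter sequences from RefSeq. The canonical start is that of the Ensembl canonical transcript. Genes of like GC content were all other protein-coding genes, each weighted by the members in its class of 2 percentage points of GC content. The name rule was read to take in RPS4Y1, RPS4Y2 and RPL36AL. Named genes were the members without a peak in a replicate, the 8 highest and the 8 lowest by mean percentile, long members with gene-end peaks in both replicates, and a short list by role; others, named in lists or beside a shared peak, were chosen after their values were seen. The members, gene lists and letters were chosen with earlier results of these data known. Shares carry 95% Wilson intervals, and no test was run. Python 3.11.15, numpy 2.4.6, pandas 2.3.3 and scipy 1.17.1 were used.

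RefSeq promoters were not used for 17 members, among them RPL23, RPL23A, RPL30, RPL37, RPL39L, RPL3L, RPL5, RPL7, RPL8, RPS15A, RPS2 and RPS20. Some genes entered every count but are not reported here by name.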

Additional observations from a re-analysis of the deposited data

Results flagged for a closer look

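The reference holds alternate sequences of some regions beside the main chromosomes, and the comparisons did not use peaks there. Copies of the promoters of 3 members, RPS18 and RPS9 among them, lay on such sequences, 15 copies in all, where a copy was at least 5 of 10 words of 100 bases from the 1000 bases around the canonical start. In replicate 1, 9 copies had a peak within 3000 bp, and in replicate 2 there was 1. They are given here because they lie outside the sequences compared, and no expected number was computed. All 5 copies of RPS18 had a peak in replicate 1, with folds from 4.4 to 6.21, beside 5.95 on the main chromosome 6, and none had one in replicate 2, where the main chromosome also had none. RPS9 had a peak at 3 of 9 copies in replicate 1 and at none in replicate 2, while its promoter on the main chromosome 19 had folds of 8.61 and 8.67. How the aligner shared reads among such copies was not tested.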

How the results depend on the processing

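The difference between members and genes of like GC content stayed above 0 under the alternatives run for it. Apart from those that leave out a replicate, 39 of 67 recomputed values moved by less than 1 SD between replicates. The median summit position of the strongest promoter peaks changed sign with the replicate used, −116.0 bp in replicate 1 alone and 37.0 bp in replicate 2 alone. With only peaks of −log10 q of at least 5, the share of members found in both replicates was 78.6%, the median fold 8.03 and the mitochondrial share 65.4%. With each list limited to its 10000 highest peaks by −log10 p, these were 58.3%, 9.33 and 42.3%, genes of like GC content had 24.1%, the difference was 34.3 percentage points and the median percentile 65.9. With summits in place of edges within 3000 bp, the share was 78.6%, the difference 19.6 points, the fold 6.96 and the percentile 69.2. With peaks within 1000 bp of any start, fold and percentile were 7.08 and 69.6. With no other gene's start within 6000 bp, the difference was 35.0 points, the fold 6.71 and the percentile 64.3. The percentile was 74.6 without paralogs and with names of at most 1 letter after the number. Covered length was 1110 bp within 1000 bp of the start, gene-end summits within 500 bp were at 10%, and peaks overlapping pseudogenes at 1.32%. Chosen after seeing the data, peaks within 1000 bp of the canonical start gave a difference of 30.8 points, a fold of 6.91 and a percentile of 70.4, and leaving out chromosome 19 gave a fold of 6.86 and a percentile of 66.5. With each replicate alone, the share of members was 86.9 to 94.0%, that of genes of like GC content 60.8 to 73.0%, the difference 21.0 to 26.1 points, the pseudogene share 9.66 to 13.0% and the mitochondrial share 78.2 to 88.5%. The cause of these shifts was not tested. No paired analysis was possible because the samples form a single group.

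With 2 replicates and no read totals, a gene without a peak cannot be told apart from a gene whose enrichment was below the caller's threshold at this depth, and replicate 2 had fewer fragments at its summits. Folds depend on a control whose source is not given in the sources used here.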
